A study of Mus musculus with 45 samples.

Results

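The comparison described here is loss of FADD from the intestinal epithelium against its floxed control in the mouse ileum. It used 10 of the series' 45 arrays, chosen by the genotype in their titles: 5 labelled FADD IEC-KO with no further mutation and 5 labelled Fadd fl/fl. IEC-KO stands for knock-out in intestinal epithelial cells, and fl/fl for homozygous floxed alleles, which the controls carry undeleted. All mice were 11 weeks old per the labels, were housed specific-pathogen-free on chow, and have no stated sex. The series measured ileum RNA in 9 groups of 5. The other deletion groups join FADD IEC-KO to Mlkl-/-, to Zbp1-/-, to RIPK3 IEC-KO or to CASP8 IEC-KO with Mlkl-/- (the triple mutants), or delete caspase-8 alone (CASP8 IEC-KO) or with Mlkl-/-, and the other control is Casp8 fl/fl. The labels name neither the Cre recombinase that makes the deletion nor its promoter, and do not say whether the floxed controls carry it. Fewer cells of a type and less RNA per cell cannot be told apart in these pieces of whole tissue, which also hold cells outside the epithelium that keep Fadd.

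FADD is the adaptor that joins ligand-bound death receptors such as Fas and the TRAIL receptor to caspase-8. The complex can start apoptosis, and in the gut epithelium FADD and caspase-8 also hold back necroptosis, a lytic death in which the kinase RIPK3 activates the membrane-disrupting protein MLKL. ZBP1 is a nucleic acid sensor that can engage RIPK3. Paneth cells sit at the base of small intestinal crypts, secrete alpha-defensins, lysozyme and other antimicrobial proteins into the lumen, and supply signals to the neighbouring stem cells.

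Values are log2 intensities as the authors normalized them, so a difference of 1 is a doubling, and differences are given as log2 fold changes, FADD IEC-KO minus Fadd fl/fl, with the standard error (SE) of the fit. Array medians lay between 6.36 and 6.44, and the number of arrays limits the precision. Each array had its own title number, and no statement beyond that says that each is a separate animal. The p-values therefore rest on the spread between arrays, pooled per gene over all 9 groups. A change was called at an adjusted p under 0.05 from limma, fitted to all 45 arrays and 19494 genes with Benjamini-Hochberg adjustment. By that rule 727 genes were called (3.73%), 353 higher (1.81%) and 374 lower (1.92%) in FADD IEC-KO. With each array centred on its median the split was 534 higher and 349 lower. The median log2 fold change of all genes was 0.00. A fit of the 2 groups alone called 153 genes, among them 58 of 99 called genes chosen by name. In 72 of these 99 the standard deviation (SD) was larger in FADD IEC-KO than in Fadd fl/fl, against 51.5% of all genes.

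Some arrays stood apart. FADD IEC-KO mouse 1 had Fadd at 7.32, close to the controls. Fadd fl/fl mouse 1 was low in several Paneth cell genes, and FADD IEC-KO mouse 4 was low in immune genes and had the lowest median correlation with its group (r = 0.981 across genes). Fadd fl/fl mice 1 and 5 were below the other controls in the interferon gamma, MHC class I and T cell lists. Leaving out FADD IEC-KO mouse 1, Fadd fl/fl mouse 1 and FADD IEC-KO mouse 4 in turn gave 644, 607 and 1090 called genes. Y-linked genes averaged 7.90 and 7.84 in FADD IEC-KO mice 4 and 5 and 2.96 to 3.37 in mice 1 to 3, against 8.04, 7.96 and 7.77 in Fadd fl/fl mice 1, 2 and 4 and 2.88 and 3.07 in mice 3 and 5. With this index as a covariate 699 genes were called. Titles carry numbers under 100 in 4 FADD IEC-KO and 2 Fadd fl/fl arrays and of 200 or over in 1 and 3, with no stated meaning. With these as a block 793 genes were called, 482 higher and 311 lower. The ileal markers Fabp6, the bile acid-binding protein, and Slc10a2, the bile acid transporter, lay between 11.50 and 12.82 in FADD IEC-KO mice and between 11.30 and 12.79 in controls, high in both.

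The deepest falls were in Paneth cell genes, and the windows before the starts of some of them are shown because the fall covered an entire gene family. RefSeq's promoter table (GRCm38.p6) held the 250 bases before the start for 12 of the 22 measured alpha-defensins. The letters CTTTGA, read on either strand, are found in sites of the TCF/LEF factors of Wnt signalling, a pathway that directs Paneth cell differentiation. They occurred in 11 of these 12 windows, against 14.0% of 27025 windows of all genes. In 8 of the 12 they occurred as a pair with starts 40 bases apart, an arrangement present in 12 of all 27025 windows (0.0444%), these defensins included. Only this spacing was searched, and no outside source for it is given here, so these shares are a description and not a test. TATAAA, the letters of a TATA box, also occurred in 11 of 12, against 13.0% of all windows; the motifs do not overlap. The 12 windows are close relatives, with 51.6% to 100% identity between pairs and a median of 70.5%, so they are not separate observations. A match is a description of the sequence and does not show binding. Defa21 (chr8:21025295-21025544, plus strand) and Defa41 (chr8:21201354-21201603, plus strand) show the pair, written as its complement TCAAAG in capitals, and the TATAAA in capitals after it.
Defa21: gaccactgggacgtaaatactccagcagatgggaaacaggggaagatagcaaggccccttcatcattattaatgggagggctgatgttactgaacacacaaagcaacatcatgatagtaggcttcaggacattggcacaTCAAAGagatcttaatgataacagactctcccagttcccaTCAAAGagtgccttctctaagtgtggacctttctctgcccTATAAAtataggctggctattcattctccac
Defa41: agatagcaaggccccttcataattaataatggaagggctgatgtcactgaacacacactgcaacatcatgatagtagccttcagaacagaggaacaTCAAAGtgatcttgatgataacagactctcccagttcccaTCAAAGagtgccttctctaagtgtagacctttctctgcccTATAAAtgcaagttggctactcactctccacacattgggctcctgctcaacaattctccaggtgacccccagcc

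A second pair of windows belongs to the lysozymes, which are shown because Lyz1 is the Paneth cell lysozyme and Lyz2 the myeloid one, and both fell. Their windows, Lyz1 at chr10:117292869-117293118 and Lyz2 at chr10:117282273-117282522 on the minus strand, were 79.4% identical, and capitals mark the bases that differ or face a gap in the alignment.
Lyz1: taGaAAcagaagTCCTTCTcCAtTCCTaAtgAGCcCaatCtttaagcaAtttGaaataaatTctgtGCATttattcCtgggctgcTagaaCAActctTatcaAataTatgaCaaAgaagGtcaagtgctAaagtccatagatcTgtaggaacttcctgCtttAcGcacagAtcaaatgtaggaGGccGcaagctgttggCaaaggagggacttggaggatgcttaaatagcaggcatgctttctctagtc
Lyz2: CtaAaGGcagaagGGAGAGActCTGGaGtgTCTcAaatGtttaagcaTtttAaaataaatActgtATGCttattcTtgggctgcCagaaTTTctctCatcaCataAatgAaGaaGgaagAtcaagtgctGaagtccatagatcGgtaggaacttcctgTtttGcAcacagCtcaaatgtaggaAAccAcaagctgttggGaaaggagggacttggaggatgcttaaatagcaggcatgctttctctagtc

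Fadd itself was examined first. Its level was 7.32, 5.96, 6.31, 6.45 and 6.21 in FADD IEC-KO mice 1 to 5, against 7.61, 7.56, 7.49, 7.46 and 7.53 in Fadd fl/fl mice 1 to 5. All deleted mice were below all controls, as in 1.59% of all genes, but mouse 1 missed the lowest control by little while its group mates were far lower. The fall was 1.08 ± 0.17 (SE) on the log2 scale (limma adjusted p = 0.000151) and reached 1.30 without that mouse. Casp8, which the deletion leaves intact, differed by -0.12 ± 0.14 and was not called. Mlkl and Ripk3 were 0.48 ± 0.19 and 0.49 ± 0.16 higher, with adjusted p = 0.157 and 0.0752, and Zbp1 differed by -0.18 ± 0.29.

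Alpha-defensins, the pore-forming antimicrobial peptides of Paneth cell granules, fell without exception among those measured. All 22 passed the test, with a median log2 fold change of -2.57, where 1.92% of all genes were called lower. In 21 of the 22 every deleted mouse was below every control, the exception being Defa25. These are 19 distinct measurements, because Defa2 and Defa33, Defa20 and Defa32, and Defa17 and Defa3 had the same value in every array; near-identical family members may share probes throughout. The defensins made up 22 of the 60 genes that fell at least 2-fold (0.308% of all genes). Defa28 had 5.57, 4.08, 4.90, 4.14 and 3.15 in FADD IEC-KO mice, against 8.09, 8.40, 8.50, 8.19 and 8.22 in Fadd fl/fl mice. The control values lay within a narrow band and the deleted mice well below it and widely spread, a fall of 3.91 ± 0.48 on the log2 scale, or 15.1-fold (adjusted p = 2.40e-06). Defa41 had 8.92, 6.84, 8.14, 7.49 and 6.41 in FADD IEC-KO mice, against 10.07, 11.03, 11.06, 10.78 and 10.49 in controls, again without overlap.

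Losses within the family ran from 1.33 for Defa25 to 3.91 for Defa28. The log2 fold change was -3.36 ± 0.50 for Defa26, -3.22 ± 0.60 for Defa34, -3.12 ± 0.50 for Defa41, -2.98 ± 0.53 for Defa43, -2.87 ± 0.52 for Defa37, -2.87 ± 0.56 for Defa35 and -2.81 ± 0.44 for Defa39. Defa21, whose window is printed above, fell by 2.32 ± 0.52. In these 7 genes and in Defa28, deleted mouse 1 was the highest of its group and mouse 5 the lowest. Averaged over the 22 defensins, the log2 level was 9.96, 8.15, 9.21, 9.14 and 7.73 in FADD IEC-KO mice 1 to 5, against 11.15, 11.56, 11.58, 11.54 and 11.41 in Fadd fl/fl mice. Mouse 1, with the most Fadd, also kept the highest average, and mice 2 and 5 had the lowest. This order was not shared by all Paneth cell genes, since mouse 5 was the highest of its group in Ang4. The median log2 fold change was -2.81 without mouse 1, and all 22 passed the test in that fit. It was -2.33 without mouse 2 and -2.34 without mouse 5, and 21 of the 22 passed in each. Leaving out any single mouse of either group gave 21 to 22 calls. Among arrays titled under 100, where Fadd fl/fl has 2, the median was -2.24 and 0 of the 22 passed. Among those titled 200 and over, FADD IEC-KO has only mouse 5, the lowest in these genes, and the median was -3.76.

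**Figure D1:**
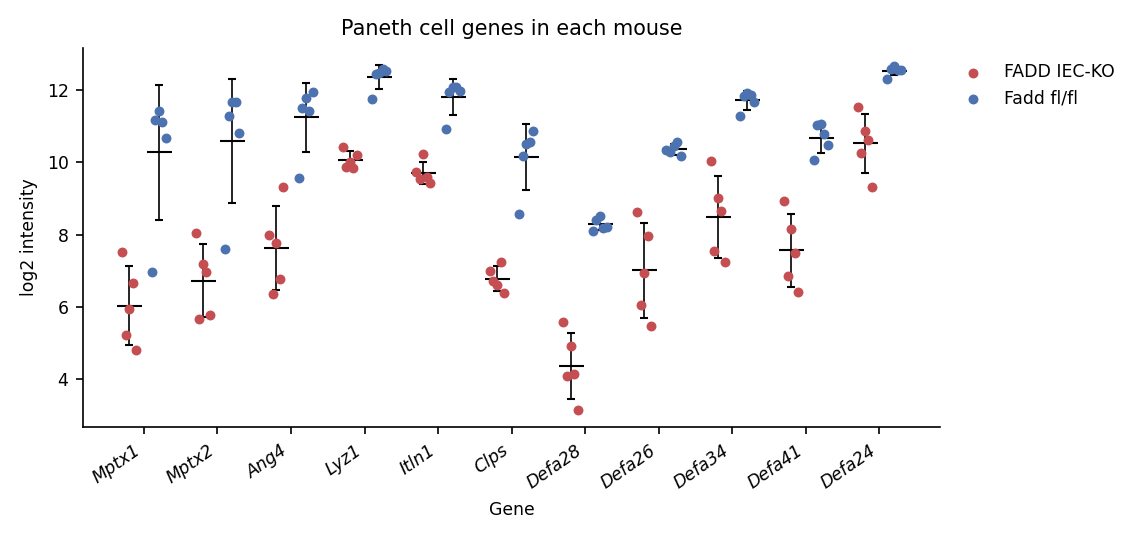
Log2 intensity of Paneth cell genes (vertical axis) in each FADD IEC-KO mouse (red) and each Fadd fl/fl mouse (blue). Bars give the mean and SD of 5 mice. The deleted mice lie below the controls except in Mptx1 and Mptx2, where Fadd fl/fl mouse 1, at 6.97 and 7.59, falls among them.

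Other Paneth cell products fell alongside the defensins, with 9 of 12 called lower, 0 higher, and a median log2 fold change of -1.84. Of all genes, 1.92% were called lower. Mptx1, a mucosal pentraxin that binds bacteria, had 7.52, 5.22, 5.94, 6.65 and 4.79 in FADD IEC-KO mice, against 6.97, 11.17, 11.43, 11.13 and 10.66 in Fadd fl/fl mice. Control mouse 1 lay inside the range of the deleted mice, and the other 4 controls lay far above it. The fall was 4.25 ± 0.73, or 19.0-fold (adjusted p = 0.000412). Its neighbour in the family, Mptx2, had 8.04, 5.66, 7.17, 6.97 and 5.77 in FADD IEC-KO mice, against 7.59, 11.27, 11.66, 11.67 and 10.80 in controls, a fall of 3.88 ± 0.65. Without control mouse 1 the log2 fold changes were -5.07 for Mptx1 and -4.63 for Mptx2.

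Ang4, a microbicidal ribonuclease, had 8.0, 6.34, 7.77, 6.77 and 9.31 in FADD IEC-KO mice, against 9.56, 11.51, 11.77, 11.42 and 11.95 in Fadd fl/fl mice. The groups did not overlap, though deleted mouse 5 came close to control mouse 1, and Ang4 fell by 3.61 ± 0.54 (a log2 fold change of -4.03 without that control). Clps, which encodes the lipase cofactor colipase, had 6.98, 6.72, 6.60, 7.24 and 6.37 in FADD IEC-KO mice, against 8.58, 10.18, 10.52, 10.57 and 10.87 in controls. Its deleted mice were alike and all below every control, with a fall of 3.36 ± 0.39, or 10.3-fold (adjusted p = 1.00e-06). Pnliprp2, a pancreatic lipase-related protein that colipase can assist, fell by 2.35 ± 0.31 and was the sole call among 13 exocrine pancreas genes. The defining pancreatic enzymes Cela1 (0.29 ± 0.15) and Cpa1 (-0.15 ± 0.10) were not called. Against Casp8 fl/fl the log2 fold changes were smaller in size, -2.20 for Clps and -1.30 for Pnliprp2, and both genes were still called.

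Lyz1, the Paneth cell lysozyme, had 10.44, 9.86, 10.02, 9.86 and 10.21 in FADD IEC-KO mice, against 11.76, 12.44, 12.48, 12.57 and 12.53 in Fadd fl/fl mice. It fell by 2.28 ± 0.32 (adjusted p = 2.81e-05) without overlap of the mice. Lyz2 fell by 2.17 ± 0.31, a similar size; whether its probes also read Lyz1 transcripts was not tested. The lectin Itln1 fell by 2.11 ± 0.32, Habp2, a serine protease, by 1.57 ± 0.21, and the stress-induced regulator Nupr1 by 1.05 ± 0.17. Lyz1, Itln1, Habp2 and Nupr1 are described here after their values were seen. The secreted protease Mmp7, which activates pro-defensins, differed by -0.38 ± 0.25 (adjusted p = 0.437), with 8.74, 8.96, 9.30, 8.55 and 9.17 in FADD IEC-KO mice, against 8.12, 9.60, 9.78, 9.80 and 9.34 in controls. Control mouse 1 was lower than all deleted mice, and the other controls higher. The phospholipase Pla2g2a (-0.27 ± 0.40) and the niche signal Wnt3 (-0.19 ± 0.13) were not called either. The number of Paneth cell products called lower was 9 in each fit that left out 1 mouse. Against Casp8 fl/fl it was also 9, but their median log2 fold change was -1.21, with Habp2 at -0.83. The alpha-defensins had a median of -2.45 there, and all 22 were called lower. None of 16 genes of the secretory machinery and endoplasmic reticulum stress was called (median 0.03), and Hspa5, its main chaperone, differed by 0.15 ± 0.09.

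Other epithelial lineages changed in few genes. Enteroendocrine cells are the hormone-producing cells of the epithelium. In their list 3 of 18 genes fell, against 1.92% of all genes, 0 rose, and the median was -0.24. Gcg, the source of GLP-1, had 8.79, 8.21, 8.42, 8.51 and 7.89 in FADD IEC-KO mice, against 9.04, 9.38, 9.40, 9.45 and 9.65 in Fadd fl/fl mice, and fell by 1.02 ± 0.19 with all mice separated. Sst, somatostatin, fell by 0.74 ± 0.15 and Pyy, peptide YY, by 0.62 ± 0.12, while the granule protein Chga (-0.45) was not called. In goblet cells 1 of 14 genes fell, the mucus-associated Clca1 by 0.45 ± 0.12, and the mucin Muc2 differed by -0.08 ± 0.06. In tuft cells 1 of 14 fell, the kinase Dclk1 by 0.48 ± 0.13. Among 13 stem cell genes 1 rose, Cdca7 by 0.52 ± 0.14, and the receptor Lgr5 of crypt base stem cells differed by -0.26 ± 0.12 (adjusted p = 0.220). All 23 cell cycle and replication genes had positive log2 fold changes with a median of 0.34, but 2 passed the test, the ribonucleotide reductase subunit Rrm2 (0.60 ± 0.17) and cyclin E1, Ccne1 (0.41 ± 0.12); leaving out single mice gave 0 to 3 calls. In a fit of the 2 groups alone Gcg passed, whereas Sst, Pyy, Clca1, Dclk1, Cdca7, Rrm2 and Ccne1 had adjusted p between 0.0727 and 0.176. Ccne1 also missed the threshold with the sex index as a covariate (adjusted p = 0.0576).

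Of 18 Wnt, Notch and niche signals 0 were called, with a median of -0.06, and the same count of 0 held for 15 brush border genes (median -0.21) and 29 respiratory chain genes (median 0.08). Among 17 lipid absorption genes the single call was Apoa4, an apolipoprotein of chylomicrons. It had 11.28, 11.69, 11.50, 9.03 and 10.86 in FADD IEC-KO mice, against 7.84, 9.43, 9.62, 8.72 and 8.83 in Fadd fl/fl mice, and rose by 1.98 ± 0.35 (adjusted p = 0.000569). Deleted mouse 4 overlapped the controls, and the rise was 2.44 without it and 1.72 without Fadd fl/fl mouse 1, the lowest control. In a fit of the 2 groups alone the adjusted p of Apoa4 was 0.0718. The chylomicron genes Apob (-0.03), Mttp (0.17) and Apoa1 (-0.03) were not called. Among 15 genes of epithelial structure 1 rose and 0 fell, with a median of 0.07 and 11 positive values. The keratin Krt20 of differentiated cells rose by 0.23 ± 0.06 (adjusted p = 0.0509 with the title numbers as a block), and Vil1 and Epcam were both at 0.03 ± 0.07. In the cobalamin and bile acid list, 2 of 12 fell, the cobalamin carrier Tcn2 by 0.66 ± 0.13 and the sterol exporter subunit Abcg8 by 0.50 ± 0.14. Krt20, Tcn2 and Abcg8 missed the threshold in the fit of the 2 groups alone.

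Among the rises, Car1 was the largest. It encodes carbonic anhydrase 1, known in the mouse gut from colonic epithelium. It had 10.23, 10.61, 5.53, 8.26 and 11.52 in FADD IEC-KO mice, against 4.59, 5.72, 5.37, 5.99 and 5.22 in Fadd fl/fl mice. Deleted mouse 3 was at the control level and the other 4 far above it, so the rise of 3.85 ± 0.70 (adjusted p = 0.000817) is that of a group with wide spread, and a fit of the 2 groups alone gave an adjusted p of 0.0666. The other 10 measured carbonic anhydrases were not called.

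Il1rn encodes the interleukin-1 receptor antagonist, which blocks interleukin-1 signalling. It had 7.90, 8.57, 8.71, 6.91 and 9.31 in FADD IEC-KO mice, against 5.33, 5.66, 5.58, 5.63 and 5.33 in controls. Every deleted mouse exceeded every control by over 1 on the log2 scale (in 2.25% of all genes every deleted mouse was the higher), and the rise was 2.77 ± 0.40, or 6.83-fold (adjusted p = 4.27e-05). Il1f8, the cytokine IL-36 beta, also rose (1.39 ± 0.29) from a dim signal, with an adjusted p of 0.0603 in a fit of the 2 groups alone, while Il1a (0.36 ± 0.21), Il1b (0.52 ± 0.27) and Il18 (0.49 ± 0.28) were not called, so 2 of 15 interleukin-1 family genes rose and 0 fell. Nox1, an epithelial NADPH oxidase, had 8.57, 8.63, 9.34, 6.41 and 9.22 in FADD IEC-KO mice, against 4.07, 7.11, 7.15, 6.77 and 4.73 in Fadd fl/fl mice. Deleted mouse 4 lay among the controls, and the controls were themselves split, with control mice 1 and 5 far below control mice 2 to 4. The rise was 2.47 ± 0.57 (adjusted p = 0.00981, and 0.121 in a fit of these groups alone). It was 2.97 without deleted mouse 4 and 1.99 (adjusted p = 0.0436) without control mouse 1.

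**Figure D2:**
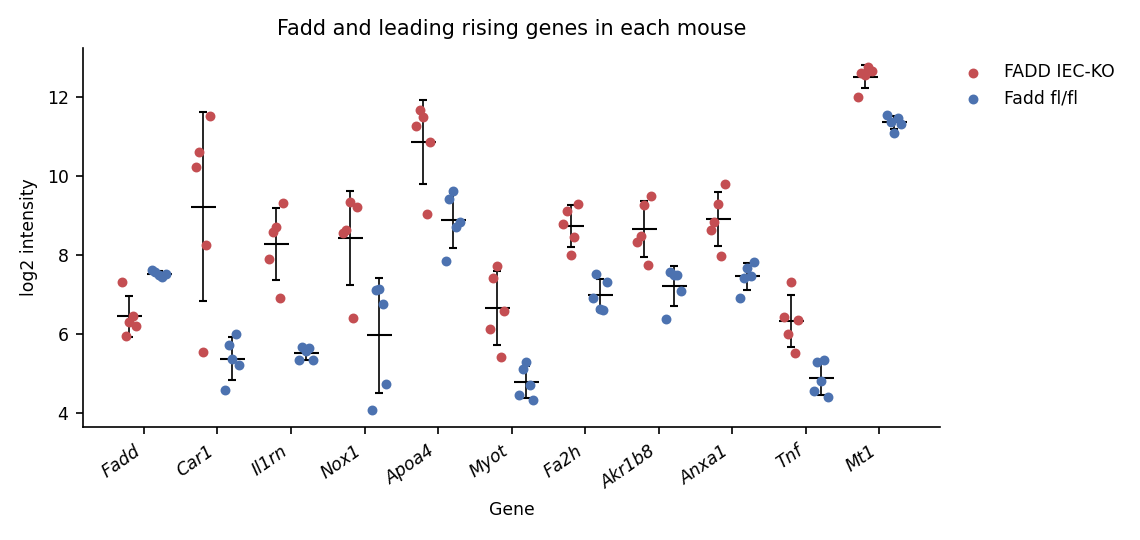
Log2 intensity of Fadd and of genes that rose (vertical axis) in each FADD IEC-KO mouse (red) and each Fadd fl/fl mouse (blue), with the mean and SD of 5 mice. Il1rn and Mt1 separate all mice, while in Car1, Nox1 and Apoa4 a deleted mouse lies among the controls.

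Genes used as marks of fetal-like, regenerating epithelium rose in 3 of 11, against 1.81% of all genes, with 0 lower and a median of 0.35. Besides Il1rn these were the annexins Anxa1 and Anxa3. Anxa1, which limits inflammation and aids epithelial repair, had 8.64, 8.84, 9.29, 7.98 and 9.79 in FADD IEC-KO mice, against 6.91, 7.43, 7.67, 7.48 and 7.82 in controls, and rose by 1.45 ± 0.33. Anxa3 rose by 0.75 ± 0.19. The EGF receptor ligands Ereg (0.40) and Hbegf (0.45) and the chaperone Clu (-0.31) were not called.

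Of 19 detoxification genes 6 were called higher and 0 lower (median 0.14), against 1.81% of all genes called higher. Gsta2, a glutathione transferase, had 9.47, 9.72, 9.76, 10.06 and 9.92 in FADD IEC-KO mice, against 8.58, 8.61, 8.80, 8.18 and 8.65 in Fadd fl/fl mice. Both groups were tight and apart, and the rise was 1.22 ± 0.19 (adjusted p = 8.68e-05). Akr1b8, an aldo-keto reductase, had 8.32, 8.47, 9.27, 7.75 and 9.50 in FADD IEC-KO mice, against 6.38, 7.58, 7.49, 7.50 and 7.09 in controls, and rose by 1.45 ± 0.32. The transferases Gsta3 and Gsta4 each rose by 0.86, the cystine transporter Slc7a11 by 0.63 and the quinone reductase Nqo1 by 0.54. The glutathione synthesis genes Gclc (0.41) and Gclm (0.14) and the haem oxygenase Hmox1 (0.23) were not called. A fit of the 2 groups alone left 3 of the 6 calls, and leaving out single mice gave 4 to 7. Among cytochrome P450 genes 2 of 14 rose, Cyp2c65 (0.99 ± 0.27) and Cyp2c66 (0.73 ± 0.21), and Cyp3a25 fell by 1.63 ± 0.45; in the fit of the 2 groups alone their adjusted p lay between 0.132 and 0.185, and that of Cyp2c66 was 0.0525 with the sex index. Enzymes of lipid and retinoid metabolism were also among the 12 leading rises: Fa2h, a fatty acid 2-hydroxylase, rose by 1.74 ± 0.26 with all mice separated, and Dhrs9, a retinol dehydrogenase, by 1.29 ± 0.37. Myot, known as a sarcomere protein of striated muscle, rose by 1.87 ± 0.36, while 0 of 14 smooth muscle genes rose.

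In the death receptor and necroptosis list, which holds FADD's own partners, 4 of 24 genes rose and Fadd fell (median -0.03). The share called higher among all genes was 1.81%. Tnf, the inflammatory cytokine that can trigger death through TNFR1, had 6.42, 6.01, 7.31, 5.52 and 6.35 in FADD IEC-KO mice, against 4.57, 5.28, 4.80, 5.35 and 4.41 in Fadd fl/fl mice. All deleted mice were higher than all controls, with a rise of 1.44 ± 0.25, or 2.71-fold (adjusted p = 0.000412). Tnfrsf10b, the mouse TRAIL receptor that signals through FADD, had 6.91, 7.02, 7.40, 6.84 and 7.19 in FADD IEC-KO mice, against 6.07, 6.28, 6.30, 6.10 and 6.59 in controls, and rose by 0.80 ± 0.16 without overlap. The TNF receptor adaptors Traf2 (0.35) and Tradd (0.24) were also called higher, by smaller amounts. Leaving out single mice gave 2 to 6 rises in this list. Receptors Fas (-0.21 ± 0.14) and Tnfrsf1a (-0.04 ± 0.09) and the caspase-8 regulator Cflar (-0.23 ± 0.10) were not called. Among 14 NF-kB subunits and inhibitors 0 were called (median 0.06), the inhibitors Nfkbia (0.10 ± 0.11) and Tnfaip3 (0.14 ± 0.14) included.

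Gasdermins are pore-forming effectors of lytic death, and the gasdermin C subfamily is expressed in intestinal epithelium. In the list of inflammasomes and gasdermins 4 of 18 genes fell, all gasdermin C members, against 1.92% of all genes, and 1 rose. Gsdmc4 had 8.92, 6.58, 6.60, 8.05 and 7.50 in FADD IEC-KO mice, against 9.20, 9.54, 9.79, 9.60 and 9.47 in Fadd fl/fl mice. The controls lay close together and deleted mouse 1 nearest to them, and the fall was 1.99 ± 0.34, or 3.98-fold (adjusted p = 0.000412); without mouse 1 it was 2.34. Gsdmc3, Gsdmc2 and Gsdmc fell by 1.97 ± 0.35, 1.84 ± 0.33 and 1.63 ± 0.33. In a fit of the 2 groups alone Gsdmc had an adjusted p of 0.0538. These neighbours in sequence may share probes, so their falls are not 4 separate observations. Gsdmd, the substrate of inflammatory caspases, differed by 0.10 ± 0.10, and the DNA sensor Aim2 rose by 1.02.

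Among IL-22 targets, antimicrobial lectins and oxidases, 3 of 23 fell and Nox1 rose. Reg3a, a bactericidal C-type lectin, had 6.59, 5.73, 6.50, 7.0 and 5.91 in FADD IEC-KO mice, against 8.46, 7.46, 7.26, 7.35 and 8.37 in controls, a fall of 1.43 ± 0.30 without overlap. The abundant lectins Reg3b (-0.06 ± 0.12) and Reg3g (-0.24 ± 0.19) were not called. Il22ra2, the decoy receptor of IL-22, fell by 0.86 ± 0.18 and the receptor chain Il22ra1 by 0.41.

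Few immune and stromal genes were called. In the macrophage list 4 of 13 fell, against 1.92% of all genes, and 0 rose. The median was -0.53, and the range over single left-out mice was 1 to 7 calls. Lyz2 was the first of them, with the doubt about its probes given above. The complement gene C1qb fell by 0.71 ± 0.21, the growth factor receptor Csf1r by 0.61 ± 0.17 and the scavenger receptor Cd163 by 0.53, whereas Adgre1 (-0.45 ± 0.15) and C1qa (-0.51 ± 0.20) were not called. Csf1r had 8.16, 7.67, 7.94, 6.84 and 8.34 in FADD IEC-KO mice, against 8.04, 8.49, 8.48, 8.64 and 8.34 in Fadd fl/fl mice. The groups overlapped, and deleted mouse 4 was lowest. Lyz2 was the single macrophage call without that mouse, with the title numbers as a block, and in the fit of the 2 groups alone. Only 1 macrophage gene was called, too, when FADD IEC-KO mouse 2 or 3 or Fadd fl/fl mouse 2, 3, 4 or 5 was left out singly. Against Casp8 fl/fl 3 of the 13 fell, but C1qb (-0.19, adjusted p = 0.647) and Csf1r (-0.41, adjusted p = 0.151) were not called. Averaged over the macrophage list, the log2 level ran from 6.44 to 7.43 in FADD IEC-KO mice and from 7.20 to 7.71 in controls.

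Neutrophil genes were called in 1 of 15. S100a8, a calprotectin subunit, had 4.43, 4.23, 5.69, 3.06 and 4.59 in FADD IEC-KO mice, against 3.12, 2.72, 2.82, 2.90 and 3.20 in controls. It was dim throughout, deleted mouse 4 lay at the control level, and the rise was 1.45 ± 0.28 (adjusted p = 0.00128, and 0.0796 in a fit of the 2 groups alone), or 1.79 without it. Its partner S100a9 differed by 0.63 ± 0.19 (adjusted p = 0.0501), and the neutrophil genes Mpo (0.10), Elane (-0.04) and Ngp (-0.06) were not called. Of 32 chemokine genes 1 was called, Ccl6, which fell by 0.83 ± 0.17. The neutrophil attractants Cxcl1 (0.32 ± 0.13) and Cxcl2 (0.39 ± 0.16) were not.

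Interferon gamma, MHC class I and MHC class II lists had 0 calls among 17, 9 and 9 genes, with medians of -0.17, -0.08 and -0.36. Averaged over the interferon gamma list, Fadd fl/fl mice 1 to 5 had 7.16, 8.20, 8.27, 8.21 and 7.07. FADD IEC-KO mice 1 to 5 had 8.55, 7.69, 7.96, 6.39 and 7.46, so both groups were split. The type I interferon list had 2 of 27 lower, Rtp4 by 0.84 ± 0.23 and Ifi27l2a by 0.47 ± 0.14, and leaving out single mice gave 0 to 4 falls and 0 to 1 rise. The median of this list was -0.30, and 26 of its 27 values were negative. Rtp4 had an adjusted p of 0.0714 without FADD IEC-KO mouse 4, of 0.0926 without control mouse 1 and of 0.183 in a fit of the 2 groups alone. Ifi27l2a had 0.0591 with the title numbers as a block, 0.0736 without FADD IEC-KO mouse 1 and 0.0789 in the fit of the 2 groups alone. H2-Ab1, an MHC class II chain, had 11.61, 10.91, 11.18, 8.43 and 11.09 in FADD IEC-KO mice, against 9.97, 11.55, 11.56, 11.63 and 11.01 in Fadd fl/fl mice, so that deleted mouse 4 and control mouse 1 stood below the rest. In lymphocyte lists, Cd4 fell by 0.57 ± 0.15 among 22 T cell genes, and the syndecan Sdc1, carried by plasma cells and by epithelium, rose by 0.38 ± 0.09 among 13 B and plasma cell genes. In the fit of the 2 groups alone the adjusted p was 0.163 for Cd4 and 0.0738 for Sdc1.

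In the stroma 2 of 22 collagen and matrix genes fell, the matrix protein Postn by 0.96 ± 0.20 and Sparc by 0.74 ± 0.17, with 1 to 10 calls when single mice were left out. Endothelial genes fell in 2 of 15 (Eng by 0.74 ± 0.21 and Tie1 by 0.39 ± 0.11), with 0 to 2 calls when single mice were left out. Against Casp8 fl/fl, Eng differed by -0.04 (adjusted p = 0.933) and Tie1 by -0.15 (adjusted p = 0.440). All 14 smooth muscle genes had negative values with a median of -0.38, and 1 fell, Cnn1 by 0.75 ± 0.23, with 0 to 8 calls when single mice were left out. Neuronal and glial genes fell in 1 of 12 (Uchl1 by 0.59 ± 0.18), with 0 to 2 such calls. Cnn1 and Uchl1 had adjusted p of 0.160 and 0.167 without FADD IEC-KO mouse 1. With the title numbers as a block, Eng, Tie1, Cnn1 and Uchl1 had adjusted p between 0.0594 and 0.0688, and Cnn1 had 0.0522 with the sex index. None of these 6 stromal genes passed in the fit of the 2 groups alone (adjusted p between 0.0887 and 0.235). Against Casp8 fl/fl, Postn, Sparc, Cnn1 and Uchl1 also missed the threshold. Their log2 fold changes there were -0.63, -0.42, -0.52 and -0.37 (adjusted p between 0.0519 and 0.218). The mean level of the smooth muscle list ran from 8.68 to 10.03 in FADD IEC-KO mice and from 9.27 to 10.11 in controls. The part that the amount of muscle in each piece plays in these stromal values was not tested.

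The remaining lists held 1 call or 0. Lss, a sterol synthesis enzyme, rose by 0.54 ± 0.16 among 17 cholesterol genes, and the early growth response factor Egr1 rose by 0.93 ± 0.27 among 17 immediate early genes. Ppargc1a, a coactivator of mitochondrial genes, fell by 0.75 ± 0.22 among 18 fatty acid oxidation genes, and Entpd1, which cleaves extracellular ATP, by 0.41 ± 0.10 among 14 purine genes. These 4 genes had adjusted p between 0.115 and 0.151 in the fit of the 2 groups alone. None of 17 clock genes, 14 type 2 immunity and mast cell genes or 9 fat tissue genes was called.

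**Figure D3:**
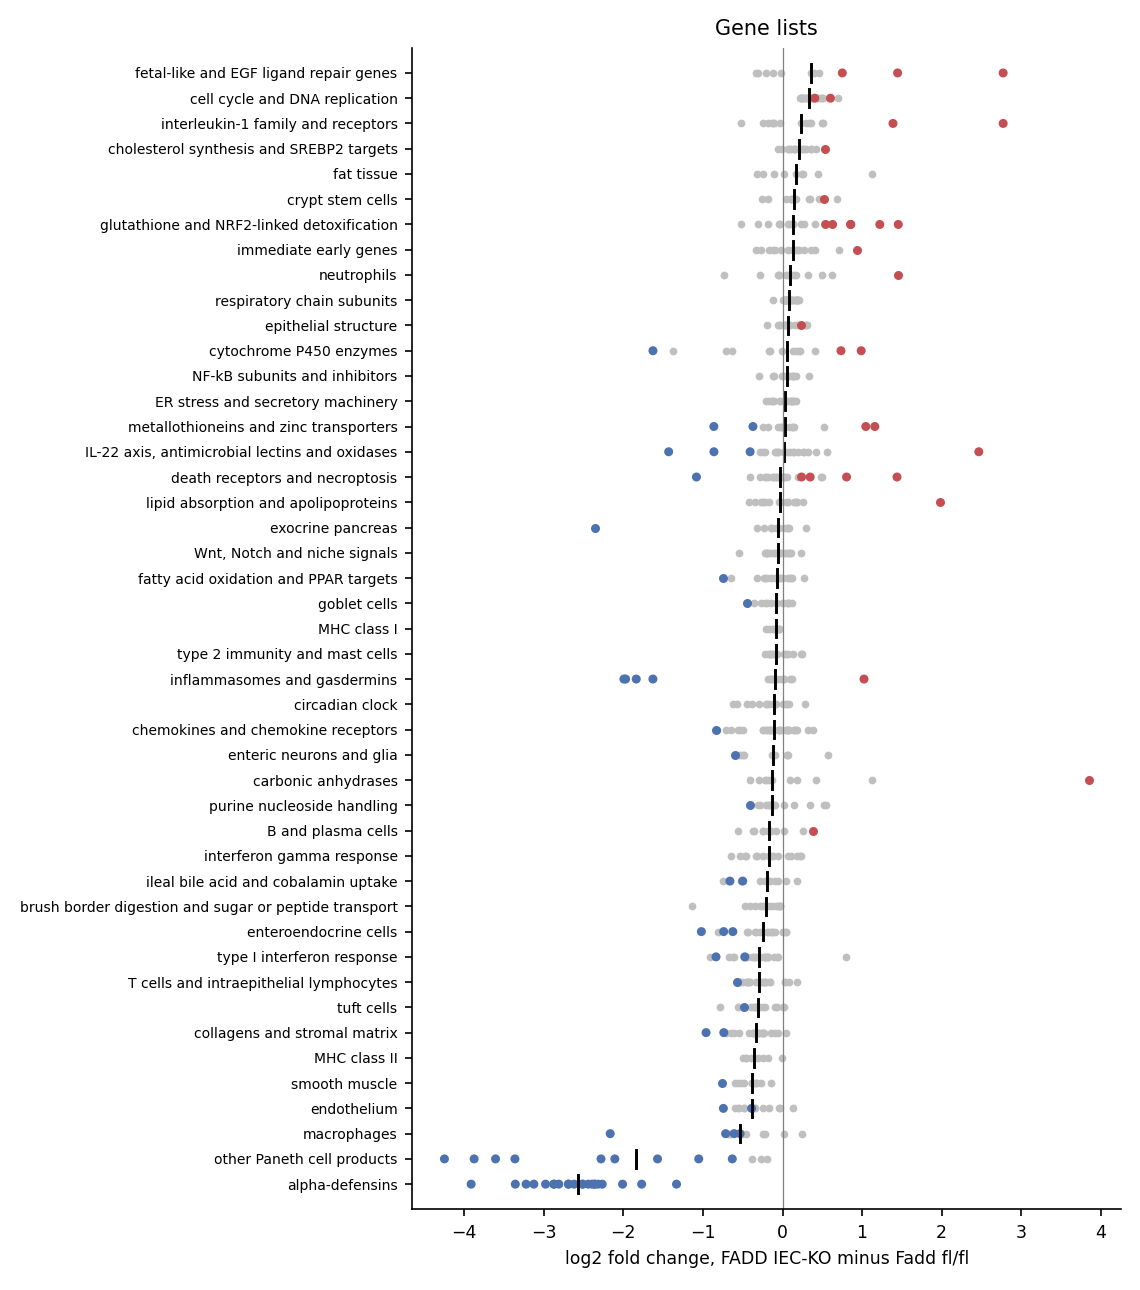
Log2 fold changes (FADD IEC-KO minus Fadd fl/fl, horizontal axis) of the measured genes of 45 lists, ordered by their median (black bar). Grey points were not called, red points rose and blue points fell; the median of alpha-defensins is -2.57 and that of other Paneth cell products -1.84, and the other medians lie between -0.53 and 0.35.

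Metallothioneins bind zinc and copper, and of 14 genes in the list with zinc transporters 2 rose and 2 fell. Mt1 had the smallest p of all genes. It had 12.01, 12.61, 12.58, 12.76 and 12.68 in FADD IEC-KO mice, against 11.55, 11.39, 11.10, 11.46 and 11.33 in Fadd fl/fl mice. Deleted mouse 1, whose Fadd was nearest to the controls, was also nearest to them in Mt1. The rise was 1.16 ± 0.09, or 2.23-fold (adjusted p = 2.38e-11), and it was the single rise that passed among the arrays titled under 100. The labels do not describe the recombinase transgene, and whether the Mt1 probe also reads sequence carried by it was not tested. Mt2 had 10.67, 11.47, 11.38, 11.78 and 11.33 in FADD IEC-KO mice, against 10.50, 10.63, 9.98, 10.28 and 10.00 in controls, and rose by 1.05 ± 0.24. The zinc exporter Slc30a2, which loads secretory granules in Paneth cells, fell by 0.86 ± 0.18, and the zinc importer Slc39a4 by 0.37.

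Across the series the Mt1 means of the 7 deletion groups lay between 12.48 and 12.64. They were 12.53 in FADD IEC-KO, 12.58 where Mlkl-/- was added to it, 12.56 with Zbp1-/- added, 12.64 with RIPK3 IEC-KO added, 12.57 in the triple mutants, 12.57 after loss of caspase-8 alone and 12.48 after its loss with Mlkl-/-, against 11.37 in Fadd fl/fl and 11.53 in Casp8 fl/fl. The deletion groups did not all overlap, since the highest array of caspase-8 loss with Mlkl-/-, at 12.53, was below the lowest with RIPK3 IEC-KO added, at 12.57. The lowest of the 35 deletion arrays, at 12.01, was above the highest of the 10 floxed arrays, at 11.66. Of 19494 genes Mt1 was the only gene higher in all 35 deletion arrays than in all 10 floxed arrays, and 0 genes were lower in all of them. Mt2 did not follow this pattern, with means between 9.73 and 11.33 in the deletion groups and 10.28 and 10.36 in the floxed groups. The deletion groups lack different genes but all have a deletion made in epithelial cells, and for Mt1 the presence of the recombinase and the loss of a floxed gene cannot be told apart.

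Other genes varied among the FADD-deleted groups, which are set side by side here as levels without a test. Mptx1 averaged 6.03 ± 1.10 in FADD IEC-KO, 4.97 ± 0.95 with Zbp1-/- added, 7.05 ± 1.24 with Mlkl-/- added and 7.99 ± 0.28 with RIPK3 IEC-KO added (SD, n = 5 each), against 10.27 ± 1.87 in Fadd fl/fl. The first 3 of these groups overlapped in range, and control mouse 1 lay within that of FADD IEC-KO. Il1rn averaged 8.28 in FADD IEC-KO, 7.68 with Zbp1-/-, 7.62 with Mlkl-/- and 6.09 with RIPK3 IEC-KO added, against 5.51 in Fadd fl/fl. Car1 averaged 9.23 in FADD IEC-KO, 9.12 with Zbp1-/-, 6.03 with Mlkl-/- and 6.42 with RIPK3 IEC-KO added, against 5.38 in controls. In the triple mutants, which also lack FADD, Mptx1 averaged 10.25 ± 0.40 (SD), Il1rn 6.59 and Car1 5.37. Their Mptx1 and Car1 means thus lay close to those of Fadd fl/fl. However, all triple mutant arrays had title numbers in the higher range described above. All arrays with Mlkl-/- added to FADD IEC-KO had title numbers in the lower range, whereas FADD IEC-KO and Fadd fl/fl held both. The part that title number plays in the means of these groups was not tested. Myot was 6.65 in FADD IEC-KO and 6.50 with Zbp1-/- added, and its means in the other groups were 4.69 to 5.51. S100a8 averaged 4.40 ± 0.94 in FADD IEC-KO and 2.95 to 3.41 in the other 8 groups, and its highest value, 5.69, belonged to FADD IEC-KO mouse 3.

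**Figure D4:**
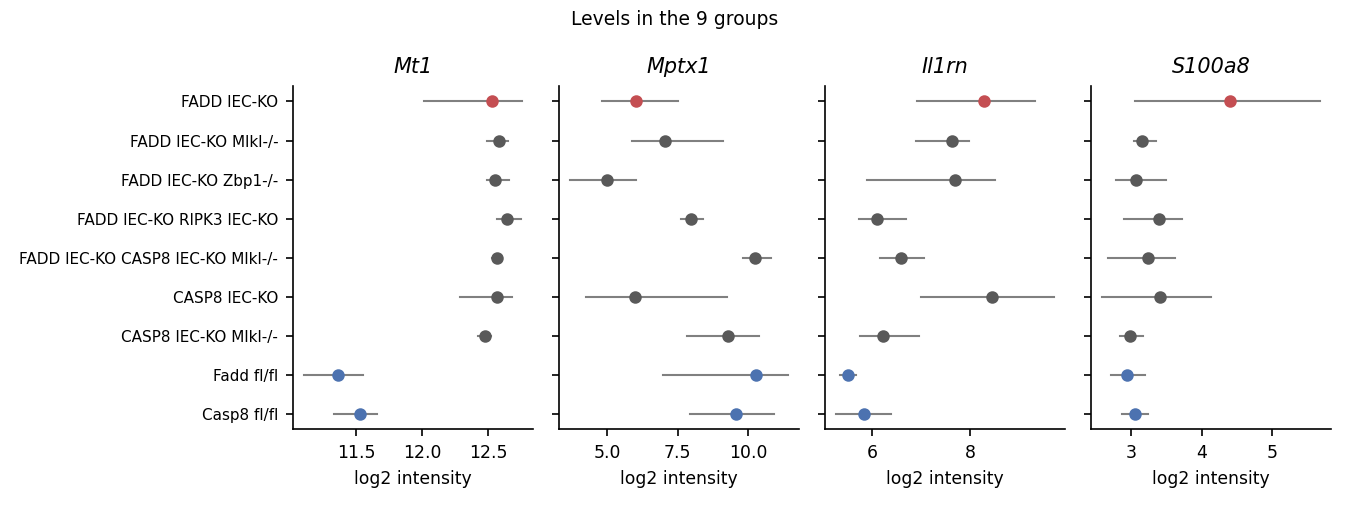
Mean log2 intensity (point) and range of 5 mice (line) of Mt1, Mptx1, Il1rn and S100a8 in the 9 groups, with FADD IEC-KO in red, floxed controls in blue and other deletion groups in grey. Mt1 lies at 12.01 or above in the deletion arrays and at 11.66 or below in the floxed arrays, while the other genes differ among deletion groups.

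Whether changes differ between loss of FADD and loss of caspase-8, its partner enzyme, was tested as an interaction, in which the effect of CASP8 IEC-KO over Casp8 fl/fl is subtracted from that of FADD IEC-KO over Fadd fl/fl; the 2 effects share no array. The caspase-8 comparison called 813 genes (4.17%). The interaction called 0 genes in limma (0.0%), with 1271 at an unadjusted p under 0.05, and 4 to 14 genes under 4 alternative settings. The smallest adjusted p was 0.0637 for Casp8 itself (0.99 ± 0.19), and Fadd had -1.10 ± 0.24 (0.0945). A p that misses the threshold does not show that both losses act alike. The log2 fold change of Defa28 was -3.91 ± 0.48 for FADD and -3.43 ± 0.48 for caspase-8, that of Il1rn 2.77 ± 0.40 and 2.62 ± 0.40, and that of Car1 3.85 ± 0.70 and 4.09 ± 0.70.

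Several genes passed the test after FADD loss and not after caspase-8 loss, and none of those given here passed the interaction test. Myot had 1.87 ± 0.36 for FADD and 0.19 ± 0.36 for caspase-8, an interaction of 1.68 ± 0.50 (adjusted p = 0.407). S100a8 had 1.45 ± 0.28 and 0.36 ± 0.28, an interaction of 1.09 ± 0.39 (adjusted p = 0.547). Tnf had 1.44 ± 0.25 and 0.46 ± 0.25, an interaction of 0.98 ± 0.35 (adjusted p = 0.566). Gsdmc4 had -1.99 ± 0.34 and -0.74 ± 0.34. Among stromal genes, Postn had -0.96 ± 0.20 and 0.01 ± 0.20, and Cnn1 -0.75 ± 0.23 and 0.52 ± 0.23, with interactions of -0.97 ± 0.29 (adjusted p = 0.408) and -1.28 ± 0.32 (adjusted p = 0.213).

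**Figure D5:**
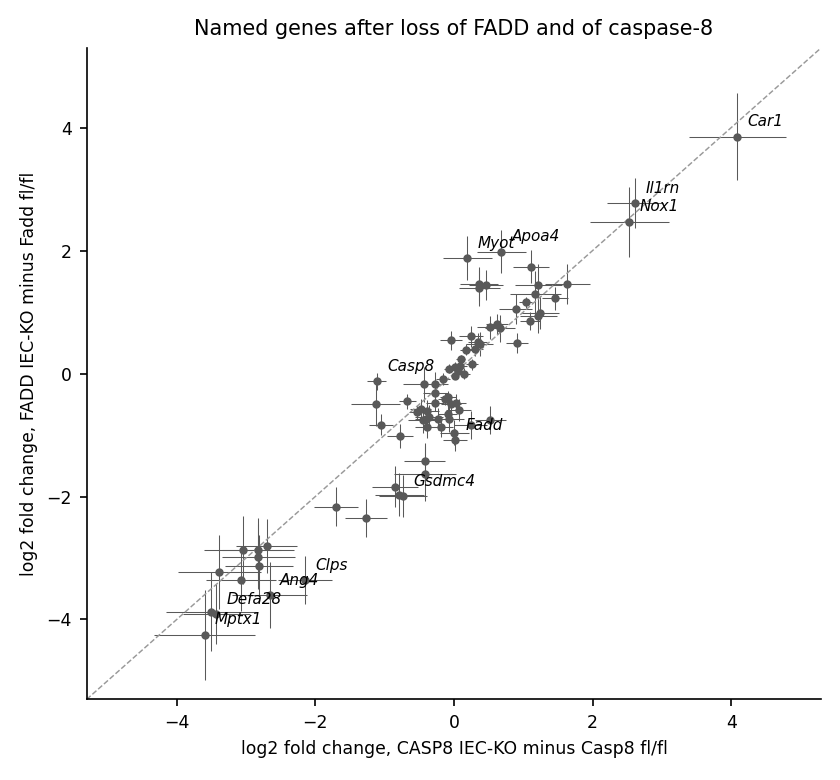
Log2 fold change after loss of FADD (FADD IEC-KO minus Fadd fl/fl, vertical axis) and after loss of caspase-8 (CASP8 IEC-KO minus Casp8 fl/fl, horizontal axis) for the genes named by rule, with SE bars; the dashed line marks equal change. Car1, Il1rn and Defa28 lie near the line, and Myot (1.87 and 0.19) and Tnf (1.44 and 0.46) above it.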

How the data were processed

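Each deposited value is a log2 intensity that the authors had already normalized. Per the submitters' processing notes, Affymetrix Expression Console and Transcriptome Analysis Console were used; versions and the summarization method are not given in the sources used here. Per the labels' protocols, RNA was labelled with the WT PLUS kit. Of 22142 probes, 19527 had 1 gene symbol and 2615 none, and for 33 genes with several probes the one with the highest mean was kept, leaving 19494 genes. Symbols came from the platform annotation, and all 19527 gene numbers matched a GRCm38.p6 gene table.

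Limma 3.58.1 in R 4.3.3 was fitted with 1 mean per group over 45 arrays (36 residual degrees of freedom), tested two-sided with eBayes and checked on simulated data. The simulated noise had the same spread in every group for a given gene, so that check does not cover unequal spread. No dim gene was filtered out. Members, lists and rules were chosen with earlier results of these data known. Of 810 list entries 743 were measured; other entries were not analysed here. Named genes were the 5 targeted genes, the 12 largest called rises and falls with an approved symbol, and per list up to 3 called members with the largest change or else the one with the highest mean; further genes were chosen after their values were seen. Among the members quoted inside lists, those beyond these 3 are of that kind. The sex index is the mean of 3 Y-linked genes. Alternatives were quantile normalization, median centring, a filter on dim genes, the mean of probes, a fit of the groups compared, array weights, trend and robust eBayes, title number block, sex index, other controls and leaving out each mouse.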

Additional observations from a re-analysis of the deposited data

Results flagged for a closer look

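In the 85 genes named by the rule, each group of 5 was searched for a value whose gap to its nearest neighbour exceeded 0.71 of the group's range. This found 12 in 170 groups, and chance flags about 1 in 20 groups. Fadd fl/fl mouse 1 accounted for 5, all low: Mptx1 at 6.97, Mptx2 at 7.59, Ang4 at 9.56, Lyz2 at 10.16 and Eng at 7.87, where the other controls were at 10.66, 10.80, 11.42, 11.16 and 8.59 or above. FADD IEC-KO mouse 1 accounted for 3: Mt1 at 12.01 and Sdc1 at 9.77 were below the rest of its group, and Ccl6 at 9.27 above it, each on the side of the controls. FADD IEC-KO mouse 4 was low in Nox1 (6.41) and in H2-Ab1 (8.43), FADD IEC-KO mouse 5 in Abcg8 (8.49), and Fadd fl/fl mouse 5 in Il1f8 (2.35).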

How the results depend on the processing

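Of 99 called genes named by the rule or after their values were seen, all kept their sign in every setting that tested them except C1qb, which was 0.059 among arrays titled 200 and over. The 727 calls (353 higher, 374 lower) became 1122 with 603 higher under a filter on dim genes, 153 (61 and 92) in a fit of these groups alone, 3 (1 and 2) among arrays titled under 100, and 62 (25 and 37) among those of 200 and over, where fewer samples were used. Against Casp8 fl/fl they were 1447 with 989 higher, against both floxed groups 1751 (1071 and 680), and with median centring 534 were higher. Leaving out each mouse gave 309 to 1090 calls, 117 to 606 higher and 162 to 484 lower; the lowest counts were without FADD IEC-KO mice 3 (309) and 2 (351) and Fadd fl/fl mice 5 (391) and 4 (474), and the highest without FADD IEC-KO mouse 4 (1090). Named calls kept were 58 in the 2-group fit, 32 among arrays of 200 and over, 1 among those under 100, and 72 to 92 without single mice. The interaction called 4 genes after quantile normalization, 14 with the filter, 11 with array weights, 6 with trend and robust eBayes, and 0 to 10 without single mice (10 without Fadd fl/fl mouse 1). Beyond smaller or filtered sets, the cause was not tested. No paired analysis was possible because the groups' titles share no numbers. The number of arrays limits precision.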

Other observations

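Further genes chosen after their values were seen lie outside the lists. Egln3, a prolyl hydroxylase that responds to low oxygen, had 9.67, 9.82, 10.23, 9.94 and 10.04 in FADD IEC-KO mice, against 8.83, 8.84, 8.79, 8.84 and 9.08 in Fadd fl/fl mice, and rose by 1.06 ± 0.16 (limma adjusted p = 4.48e-05). Both groups were tight and did not overlap. Fam162a, another gene known to respond to low oxygen, rose by 1.03 ± 0.20. The epithelial sodium channel subunit Scnn1g had 5.07, 6.51, 5.22, 5.17 and 5.54 in FADD IEC-KO mice, against 4.21, 4.57, 4.18, 4.41 and 4.34 in controls, and rose by 1.16 ± 0.19. After loss of caspase-8 it differed by -0.02, and the interaction of 1.18 ± 0.27 had an adjusted p of 0.134.

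Among protease inhibitors, Serpinb5, an epithelial serpin, rose by 1.23 ± 0.20, and Serpina1a and Serpina1b, alpha-1 antitrypsin genes, had log2 fold changes of -1.52 ± 0.32 and -1.75 ± 0.38. Serpina1a had 6.25, 5.74, 5.83, 7.41 and 5.81 in FADD IEC-KO mice, against 8.53, 7.54, 7.33, 6.92 and 8.33 in controls, with deleted mouse 4 among the controls. These 2 close copies may share probes, and in a fit of the 2 groups alone their adjusted p was 0.0726 and 0.0602. The transferrin receptor Tfrc rose by 0.85 ± 0.20, the nuclear receptor Pparg by 0.86 ± 0.15 and the calcium-binding S100a6 by 1.16 ± 0.19. The peroxisomal oxidase Hao2 fell by 1.60 ± 0.33, with its lowest value, 3.55, in FADD IEC-KO mouse 3, and an adjusted p of 0.123 in the fit of the 2 groups alone.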
